A study of Mus musculus with 9 samples.

Results

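Ribosome-protected fragments (RPFs) of the control striatal line STHdhQ7/Q7 were described on their own, to show which proteins these cells were making and which lineage genes their ribosomes occupied. The members are the 3 libraries whose labels name that line, out of 9 libraries in the series, and no library of another line entered any value. The series is a culture model of Huntington disease, in which control and mutant striatal lines differ in the length of the glutamine repeat of huntingtin. The control line is a mouse line immortalized from embryonic striatum, labelled strain C57/BL6, with a knock-in wild-type Htt exon 1 of 7 glutamine repeats. The medium was renewed on the day of harvest, and the cells received no treatment other than cycloheximide, which was applied for 10 min before harvest to freeze elongating ribosomes. Lysates were digested with RNase T1 and RNase A, the 80S monosome fraction was taken from a sucrose gradient, and fragments of 26 to 32 nucleotides were selected on a gel and sequenced after removal of ribosomal RNA. The libraries came from separate rounds of culture of 1 line, so the SDs below (n = 3 throughout) measure the spread between cultures of that line and not between animals or clones.

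A translating ribosome shields a short stretch of messenger RNA from nuclease, and the number of such fragments from a gene follows the number of ribosomes on its messages. That number depends on how much message there is, on how often ribosomes start on it and on how long they stay, and RPF counts do not separate these. A long coding sequence holds more ribosomes than a short one made at the same rate, so shares of RPFs describe where ribosomes were, and counts per codon come closer to how many chains were being made. In the embryonic striatum, radial glia line the ventricle and give rise to neurons that express transcription factors of the ganglionic eminence and later the dopamine receptors and neuropeptides of medium spiny neurons. Meninges and vessel walls of the same tissue hold fibroblasts, smooth muscle cells and pericytes, which make collagens and contractile proteins.

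The repeat that names the line lies near the start of the huntingtin protein. The stretch below, taken from the reference mouse genome (GENCODE M21 coding sequence, GRCm38) and not from these cells, opens the Htt coding sequence in exon 1 at chr5:34761907-34762008 on the plus strand. Capitals mark the glutamine codons, codons 18 to 24, of which 6 are CAG and 1 is CAA.
Htt: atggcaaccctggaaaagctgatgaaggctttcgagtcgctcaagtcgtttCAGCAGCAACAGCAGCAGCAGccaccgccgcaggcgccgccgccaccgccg
Htt, which encodes a large scaffold protein, had 737, 1260 and 747 RPFs in control replicates 1, 2 and 3, or 27.8, 30.1 and 28.8 CPM, the count scaled to a library total of 1000000. The mean was 28.9 ± 1.14 CPM over a coding sequence of 3120 codons. None of the 9332 windows of 29 bases in the Htt coding sequence occurred in the transcript of another gene, so an exactly matching RPF had no second annotated source.

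The libraries held 26504463, 41888701 and 25927603 RPFs on 36410 rows of gene symbols. A row was called present when its mean was at least 1 CPM with at least 10 RPFs in each library, absent when no library had more than 3 RPFs, and trace otherwise. On this rule 11027 rows (30.3% of all rows, and 50.7% of the 21561 protein-coding rows) were present, 2313 were trace and 23070 were absent. A count of 0 allows up to 0.113, 0.0716 and 0.116 CPM in the 3 libraries, taking 3 counts as the limit, which covers counting error only. Protein-coding rows took 98.97% of all RPFs, 10225 rows of long noncoding RNAs held 168 RPFs in all, and no row of the table was a mitochondrially encoded gene. Of the long noncoding rows 10201 had 0 RPFs, as had all 1362 rows of small noncoding RNAs. Whether counting was limited to coding sequence is not given in the sources used here. These values therefore do not measure ribosomes on noncoding RNA, and the share of all rows present carries the same limit. The log2 CPM of present rows correlated between pairs of libraries with Pearson's r of 0.992 to 0.997 across 11027 genes, which are not independent replicates.

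Replicate 3 stood apart from the other control libraries in secreted and surface proteins. Among the 7713 rows of at least 10 CPM, replicate 3 was the lowest of the 3 libraries for 26.4%, and the median log2 ratio of replicate 3 to the mean of replicates 1 and 2 was 0.05. Among 81 such rows of extracellular matrix proteins it was lowest for 76 (93.8%), with a median log2 ratio of -0.61. The same median was -0.33 for 82 rows of growth factors, guidance cues and their receptors, -0.32 for 60 rows of endoplasmic reticulum translocation, folding and glycosylation, and -0.23 for 69 rows of adhesion and surface proteins. For cytosolic ribosomal proteins, translation factors and actin cytoskeleton proteins it was 0.04, 0.04 and 0.03. Smaller shifts were seen in aminoacyl-tRNA synthetases, lysosomal proteins and solute carriers, with medians of -0.06, -0.04 and -0.06. Replicate 3 was lowest for 61.3%, 51.6% and 50.6% of their rows of at least 10 CPM. Sterol and fatty acid synthesis had the highest median, 0.12, and replicate 3 was lowest for 2 of its 41 such rows (4.88%). Replicate 3 had 25927603 RPFs and 14387 rows above 0. Replicate 1 had 26504463 RPFs and 14352 such rows, and replicate 2 had 41888701 and 14699. The cause of the difference of replicate 3 was not tested. The RPF shares of the 4 classes of largest shift are given by library, with and without replicate 3.

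**Figure D1:**
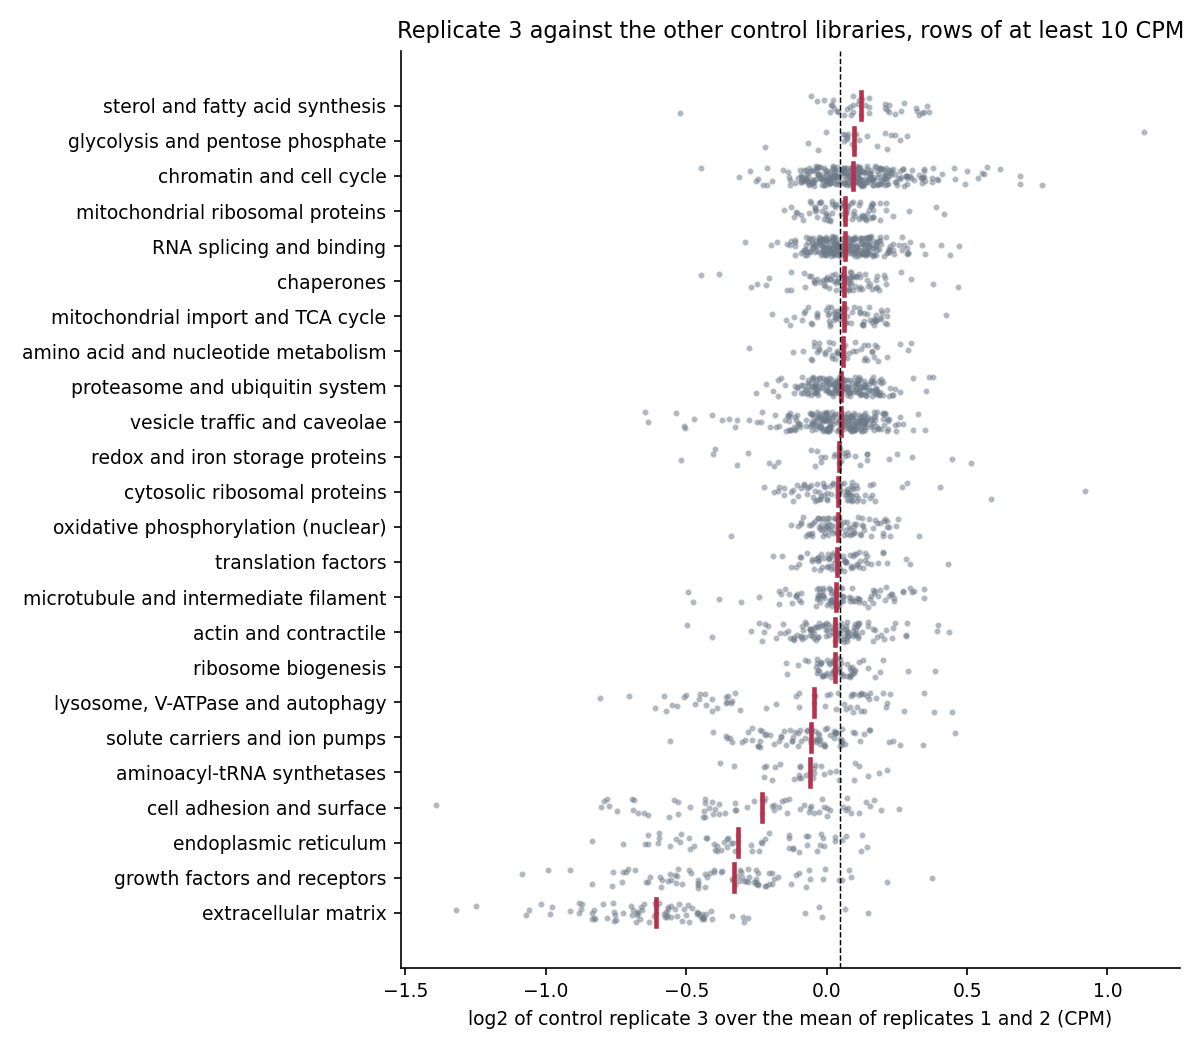
Log2 ratio of control replicate 3 to the mean of control replicates 1 and 2 (x axis, CPM) for each row of at least 10 CPM (grey points) in 24 functional classes (y axis), with the class median (red line) and the median of all 7713 rows (dashed line, 0.05). Extracellular matrix proteins lie farthest to the left with a median of -0.61. Cytosolic ribosomal proteins, translation factors and the classes of energy metabolism lie close to the dashed line.

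The highest single rows encoded translation factors, cytoskeletal proteins, chaperones and small calcium-binding or secreted proteins. Eef1a1, the elongation factor that delivers aminoacyl-tRNA, had the most RPFs, with 11865, 12270 and 12335 CPM in replicates 1, 2 and 3. Vim, which encodes the intermediate filament protein vimentin of mesenchymal and progenitor cells, followed with 9060.3, 9352 and 9433 CPM. The cytoplasmic actins Actg1 and Actb held means of 8478 ± 248 and 7049 ± 832 CPM, and the constitutive chaperone Hspa8 held 7556 ± 154 CPM. S100a6, a small calcium-binding protein, and Lgals1, the secreted lectin galectin-1, came next with means of 6633 and 6322 CPM. Hsp90ab1, the translocase Eef2 and the actin-severing protein Cfl1 completed the 10 highest rows, which together took 7.29% ± 0.220 of all RPFs. The 100 highest rows took 25.4% ± 0.288 and the 1000 highest took 63.7% ± 0.391, and 485 to 508 rows were enough to hold 50% of a library.

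Ranks 11 to 30 mixed matrix, contractile and housekeeping genes. Thbs1, the matricellular glycoprotein thrombospondin-1, had 4649.9, 4796 and 2977 CPM, with replicate 3 the lowest. Acta2, smooth muscle alpha-actin, had 4078, 4384 and 3899 CPM and non-muscle myosin Myh9 had 3922, 3935 and 3771 CPM. The nucleolar proteins Ncl and Npm1, the glycolytic enzyme Pkm, the chaperone Hsp90aa1, the initiation factors Eif5a and Eif4a1, tropomyosin Tpm1, annexin Anxa2 and ATP synthase subunit Atp5b fell between 2364 and 3855 CPM. Rps3a1, Rpl19, Rpl4, Rpl8 and Rpl38 were the ribosomal proteins among them, at 2533 to 3504 CPM. Col1a1, Fn1 and the beta-1 integrin Itgb1 were the remaining surface and matrix genes of this range, at means of 3353, 2729.5 and 2691 CPM, and all were lowest in replicate 3.

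Sorted into 24 functional classes that held RPFs, 61.3% of all RPFs could be placed, and 38.7% ± 0.369 stayed unclassed. Cytosolic ribosomal proteins were the largest class, with 8.39%, 7.99% and 8.36% of RPFs in replicates 1, 2 and 3, and actin cytoskeleton and contractile proteins were next with 7.16%, 7.06% and 7.25%. The libraries of these classes did not overlap, nor did those of actin and the following class, RNA splicing, processing and binding proteins (5.90%, 5.82% and 6.10%). Chromatin, DNA replication and cell cycle (4.82% ± 0.262), translation factors (4.57% ± 0.0745) and chaperones (4.49% ± 0.0434) followed, below all libraries of RNA processing, and each overlapped with the next. Proteasome and ubiquitin proteins took 2.92% ± 0.0665. Extracellular matrix proteins took 3.11%, 3.40% and 2.03%, so that their place in the order depended on the library, with a mean of 2.85% ± 0.725 over all libraries and 3.26% without replicate 3. Adhesion and surface proteins took 2.68%, 2.75% and 2.53%, with a mean of 2.65% ± 0.110, or 2.71% without replicate 3.

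**Figure D2:**
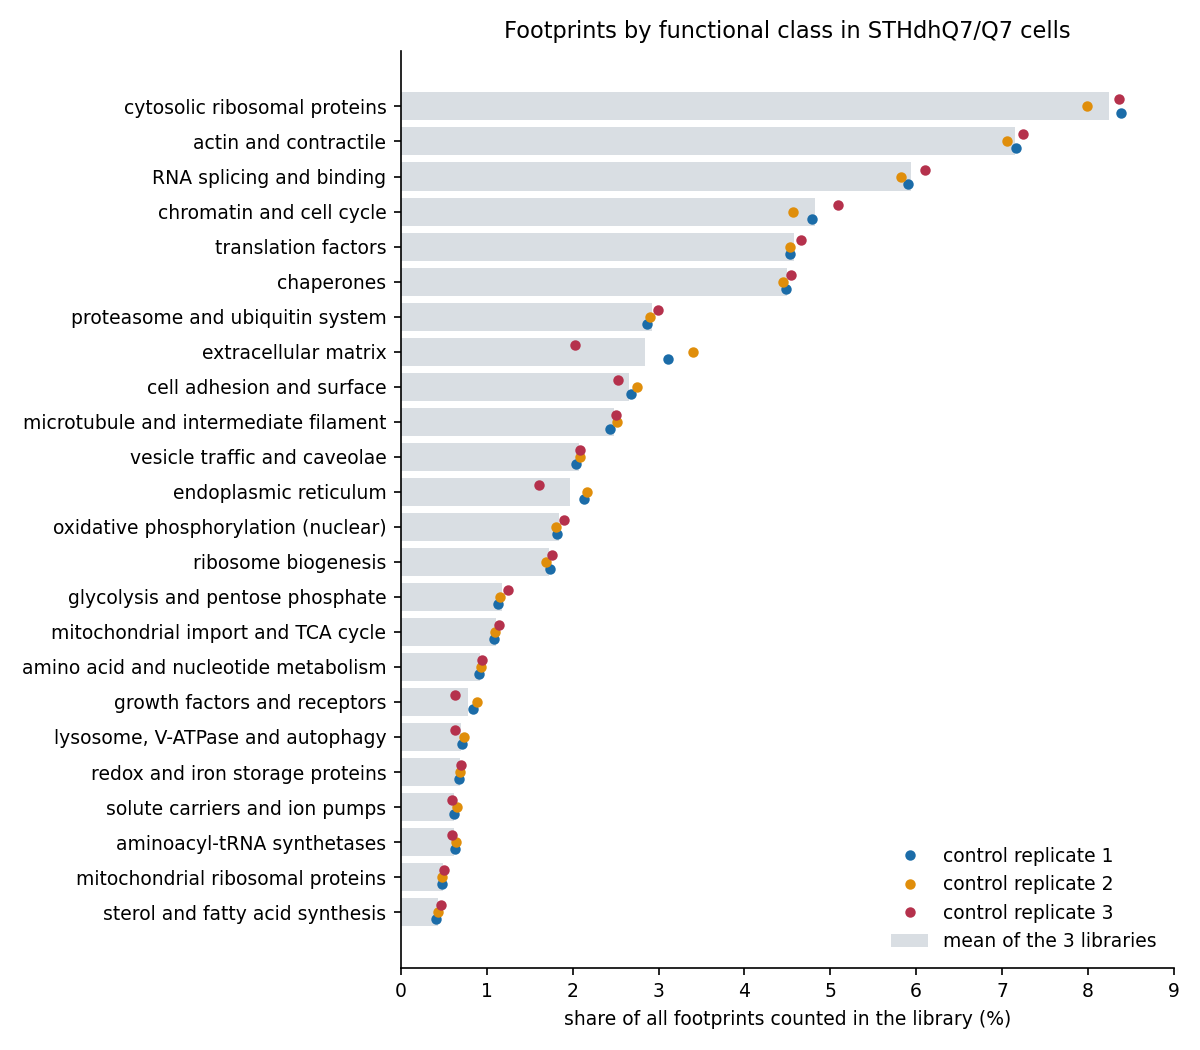
Share of all RPFs counted in a library (x axis, percent) on each of 24 functional classes (y axis), as the mean of the 3 control libraries (grey bar) and for each library (points). Cytosolic ribosomal proteins at 8.25% and actin and contractile proteins at 7.16% lead, and extracellular matrix shows the widest gap between libraries, from 2.03% to 3.40%.

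Making the translation apparatus itself occupied 15.2% ± 0.285 of the RPFs when ribosomal proteins, translation factors, aminoacyl-tRNA synthetases and ribosome biogenesis factors were added. This total is subject to the uncertainty from sequence shared between genes that is described below, which the SD does not cover. Eef1a1, Eef2 and Eif5a led the translation factors, and Eef1a1 alone held 26.6% of that class. Ribosome biogenesis took 1.72% ± 0.0364, led by the nucleolar proteins Ncl and Npm1 and the helicase Ddx21 (3855, 2972 and 958 CPM). Aminoacyl-tRNA synthetases, which charge transfer RNAs, took 0.620% ± 0.0196, led by Eprs, Kars and Nars at 513, 507 and 468 CPM. All 40 rows of the class were present, beside 50.7% of all protein-coding rows. Both cytoskeletal classes together, actin and microtubule, reached 9.64% ± 0.0950, with Vim, the tubulin Tubb5 and the lamin Lmna as the rows of most RPFs among the microtubule and intermediate filament proteins.

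Hspa8, Hsp90ab1 and Hsp90aa1 led the cytosolic and mitochondrial chaperones with 7556, 5705 and 3592 CPM. Endoplasmic reticulum proteins took 2.14%, 2.17% and 1.61% of RPFs, or 2.15% without replicate 3, led by the luminal chaperones Hsp90b1, Calr and Hspa5. Hsp90b1 had 2670.3, 2558 and 1683 CPM, so its lowest value was again in replicate 3. The ubiquitin ligase Nedd4, the segregase Vcp and the ligase subunit Skp1a were the highest rows of the proteasome and ubiquitin class at 1306, 1284 and 649.9 CPM. Lysosomal and autophagy proteins took 0.712%, 0.738% and 0.632% in replicates 1, 2 and 3, a mean of 0.694% ± 0.0552. The saposin precursor Psap, the membrane protein Lamp1 and the protease Ctsl led, and Ctsl had 494, 512 and 348 CPM.

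Energy metabolism and biosynthesis were spread over many rows of modest size. Row counts of this paragraph are to be read beside the 50.7% of all protein-coding rows that were present. Nuclear-encoded oxidative phosphorylation subunits took 1.84% ± 0.0494 with 90 of 97 rows present, and Atp5b (2262, 2427 and 2404 CPM), Atp5a1 and Cox4i1 led. Mitochondrial ribosomal proteins took 0.488% ± 0.0145 and all 78 rows were present, with Mrps6, Mrpl17 and Mrpl12 highest at 207, 158 and 148 CPM. Carriers, import and the tricarboxylic acid cycle took 1.11% ± 0.0297, led by the phosphate carrier Slc25a3 and the adenine nucleotide carriers Slc25a5 and Slc25a4. Glycolysis and the pentose phosphate pathway took 1.18% ± 0.0596, with Pkm, Eno1 and Pgk1 at 3682, 1690.3 and 1340.0 CPM. The libraries of glycolysis and of the carrier class overlapped, while those of oxidative phosphorylation lay above both.

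Smaller classes covered nuclear, membrane and redox functions. The RNA-binding proteins Hnrnpk, Ddx5 and Hnrnpu led RNA processing at 2106, 2049 and 1703 CPM. Histones Hist2h2bb and Hist1h1b and the acidic nuclear protein Ptma led the chromatin and cell cycle class. There 330 of 352 rows were present, beside 50.7% of all protein-coding rows. Clathrin heavy chain Cltc, the membrane repair protein Myof and the caveolar coat protein Cavin1 led vesicle traffic (2.07% ± 0.0295). Thioredoxin Txn1, peroxiredoxin Prdx1 and superoxide dismutase Sod1 led redox proteins (0.687% ± 0.00968). Solute carriers and pumps took 0.620% ± 0.0323 with the amino acid carrier Slc38a2 and the calcium pump Atp2a2 among the highest. Of their rows 145 of 351 were present, a smaller share than the 50.7% of all protein-coding rows. Nme2, Paics and Psat1, of nucleotide and serine synthesis, led a class of 0.925% ± 0.0184. Fasn, Acly and Scd2 led sterol and fatty acid synthesis (0.434% ± 0.0268). Growth factors and receptors took 0.840%, 0.887% and 0.630%, or 0.863% without replicate 3, led by Fstl1, the interleukin-33 receptor Il1rl1 and the receptor kinase Axl. Il1rl1 had 823, 863 and 398 CPM, and Fstl1 and Axl were also lowest in replicate 3. Among the highest unclassed rows were S100a6, the histone chaperone Nap1l1, the 14-3-3 proteins Ywhae and Ywhaz, S100a4, the ribosome-bound scaffold Rack1 and Eno1b, a near copy of Eno1.

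Counted per codon, the picture moved toward short proteins. RPFs per annotated codon, scaled to sum to 1000000 over all rows with a coding length and called density here, ranked S100a6 first with 21835, 22576 and 21433 in replicates 1, 2 and 3. Lgals1 followed at 13778 ± 899 and the actin-sequestering peptide Tmsb4x at 12506 ± 1645. Rpl38, Rpl41, Cfl1, Eef1a1, Actg1, Eif5a and S100a4 completed the 10 densest rows, from 10655 down to 5883. The median of the 10852 present rows with a coding length was 13.7, with quartiles of 4.29 and 48.6. Rows under 100 codons took 3.69% ± 0.174 of RPFs and 14.7% ± 0.525 of density, and rows of at least 1000 codons took 11.8% ± 0.634 of RPFs and 2.30% ± 0.159 of density. The median RPF lay on a gene of 402 codons, while the median of density lay on a gene of 202 codons. On the density scale ribosomal proteins rose to 15.9% ± 0.274 and matrix proteins dropped to 1.28% ± 0.325 of the total, with 1.40%, 1.53% and 0.916% in replicates 1, 2 and 3. Actin and contractile proteins stood at 7.58% ± 0.193.

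Density also allowed subunits of known protein complexes to be compared with each other. The 7 subunits of the CCT chaperonin that had a coding length ranged from 399.9 (Cct4) to 796 (Cct2), a ratio of 1.99. The 6 subunits of the MCM2-7 replicative helicase ranged from 82.3 (Mcm2) to 153 (Mcm3), a ratio of 1.86. These complexes hold their subunits in equal numbers, and their densities lay within a narrow range beside the quartiles of all present rows, whose ratio was 11.3. The 7 subunits of the actin-nucleating Arp2/3 complex spanned 2.91-fold, the 12 subunits of initiation factor eIF3 spanned 3.56-fold and the 14 subunits of the 20S proteasome core spanned 4.93-fold. Psmb5, a catalytic proteasome subunit, was the lowest of the core with densities of 141, 166 and 146, and the next, Psmb6, had a mean of 299.6 ± 16. In the F1 part of ATP synthase, the catalytic beta subunit Atp5b had a density of 1316 ± 63.7 and the alpha subunit Atp5a1, which is used in equal number, had 439 ± 17.7. The short subunit Atp5e, of 52 codons, was higher than both at 1431 ± 150. For the COPI vesicle coat the small subunit Copz1, of 177 codons, was the highest at 375 ± 6.68. Copa, of 1224 codons, was the lowest at 66.3 ± 3.00, a ratio of 5.65. The shortest of the compared subunits was also the densest in CCT, Arp2/3, F1 and COPI, but not in MCM2-7, eIF3 or the 20S core. The part of coding length in these differences was not tested, so they are not differences in chains made. The median coefficient of variation between libraries was 2.63% to 6.82% in these complexes, smaller than the spread between their members.

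**Figure D3:**
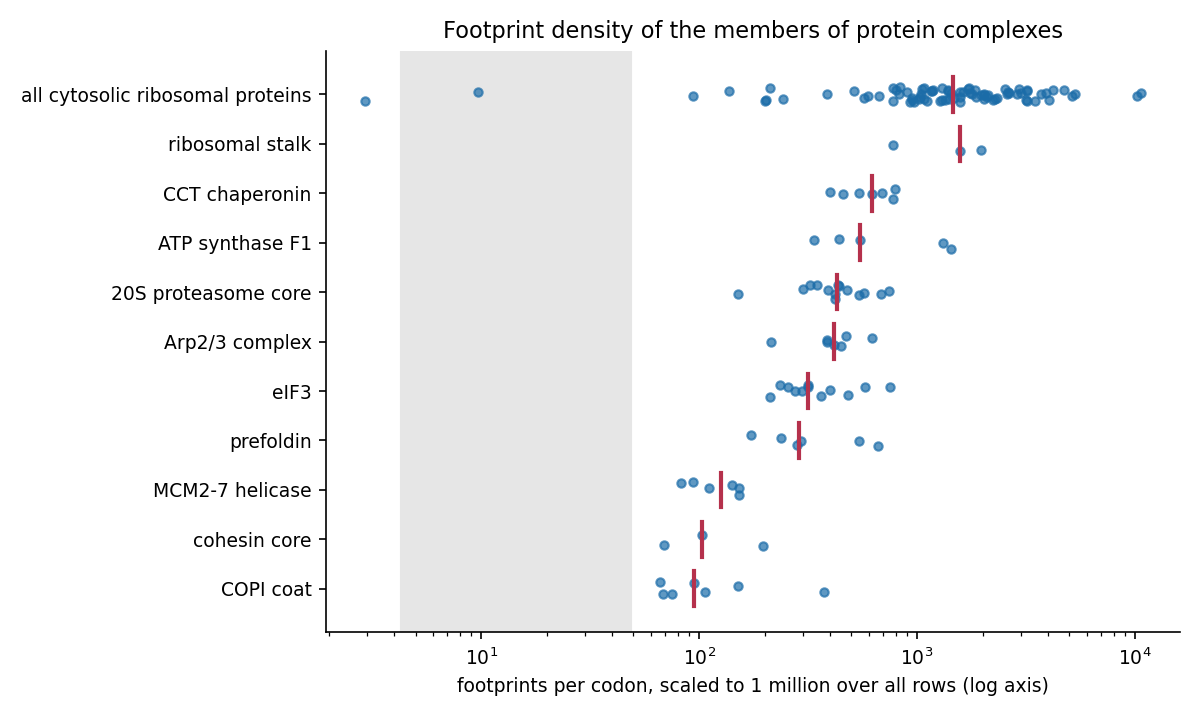
Footprint density (x axis, RPFs per codon, scaled to sum to 1000000, log scale) of each present subunit of 10 protein complexes and of all present cytosolic ribosomal proteins (points, mean of 3 control libraries), with the median of each set (red line) and the interquartile range of all present rows (grey band, 4.29 to 48.6). Subunits of CCT span 1.99-fold, whereas ribosomal proteins reach from 2.93 to 10655.

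The 82 cytosolic ribosomal proteins that were present with a coding length had a median density of 1457, with quartiles of 951 and 2475. The stalk proteins Rplp2, Rplp1 and Rplp0, which recruit elongation factors, had densities of 1972 ± 94.1, 1579 ± 96.2 and 779 ± 41.9. Each ribosome carries several copies of Rplp1 and Rplp2 on a single Rplp0. Rpl38 and Rpl41 were highest at 10655 and 10241. Rpl17, Rpl3l, Rpl7a and Rpl23 lay below 10% of the median, and Rpl29 and Rpl30, which every ribosome contains, had only 25, 36 and 25 and 16, 28 and 17 RPFs. Ribosomal protein genes have many processed copies in the genome, and how reads that fit several copies were handled is not given in the sources used here. For 76 of the 82, more than 50% of the 29-base windows of the coding sequence also occurred, base for base, in the transcript of another annotated gene. The 82 include paralogs such as Rpl3l, Rpl10l, Rpl22l1 and Rps27l, and none of the 1193 windows of Rpl3l was shared. The median density was 1387 for the 35 with every window shared, 1624 for the 41 with at least 50% shared and 1567 for the 6 with less. Rpl17 and Rpl38 both belonged to the wholly shared set and stood at its ends, with 2.93 and 10655. The class also counts Rpl32l, without a coding length, at 1142 CPM beside Rpl32 at 1350 CPM, of whose windows 77.2% were shared. Levels of single ribosomal proteins and the RPF share of their class are therefore uncertain, and the part of shared reads in them was not tested. The SD between libraries does not cover this uncertainty.

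Other abundant rows carry the same limit. The shared part of the coding sequence was 89% for Eef1a1, 95.2% for Hspa8, 100% for Actg1 and 47.7% for Actb, but 0.876% for Vim, and no window of S100a6, Lgals1, Thbs1 or Col1a1 was shared. Of the 9333 rows with at least 100 RPFs in each library, 80 had the same 3 counts as another row and held 0.973% of RPFs, among them Rps27 with its copy Rps27rt and the histone pair Hist2h3c1 and Hist2h3c2. Among the lineage markers described below, 2 of 159 present ones, S100a4 and Glul, had more than 50% of windows shared and the median was 0.

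Thbs1, Col1a1 and Fn1 were the 3 highest matrix rows, and all were lowest in replicate 3. Col1a1, the alpha-1 chain of type I collagen, had 3541, 4181 and 2337 CPM in replicates 1, 2 and 3. Fn1, which encodes fibronectin, had 2991, 3441 and 1757 CPM. Of 44 collagen chain rows 22 were present, 11 were trace and 11 were absent, a share present close to the 50.7% of all protein-coding rows.

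Type I collagen is assembled from alpha-1 and alpha-2 chains, usually with more of the former. Col1a2, the alpha-2 chain, had 692, 1174 and 471 RPFs or 26.1, 28 and 18.2 CPM. On the density scale Col1a1 exceeded Col1a2 by 128-fold, 141-fold and 121-fold in replicates 1, 2 and 3, a mean ratio of 130 ± 9.85, and both chains were lowest in replicate 3. Chains that assemble together in other collagens differed by widely varying amounts. As density ratios, Col5a2 exceeded Col5a1 by 2.12 ± 0.0776, Col6a1 exceeded Col6a2 by 2.07 ± 0.0473 and Col4a1 exceeded Col4a2 by 1.5 ± 0.118. Farther apart were Col6a1 and Col6a3, with densities of 29.6 ± 7.71 and 3.71 ± 1.66. Col8a1 had a density of 14.9 ± 2.90, while Col8a2 was trace with 6, 11 and 3 RPFs, and Col11a1 had a density of 7.56 ± 2.31, while Col11a2 was trace with 10, 14 and 6 RPFs. Col1a1 exceeded Col3a1, the chain of type III collagen, by 7.92 ± 0.531. After Col1a1, the collagen rows with the most RPFs were Col12a1 (550.1, 633 and 300.4 CPM), Col3a1 (432), Col5a2 (422) and the basement membrane chain Col4a1 (337).

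Actin isoforms of muscle were counted beside the cytoplasmic ones, and their coding sequences are closely related. The stretches below show bases 301 to 360 of the Acta2 coding sequence, counted from the start codon, and the matching bases of Actc1 and Actg1 (GENCODE M21, GRCm38). Capitals mark bases that differ from Acta2.
Acta2: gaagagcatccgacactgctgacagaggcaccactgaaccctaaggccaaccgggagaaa
Actc1: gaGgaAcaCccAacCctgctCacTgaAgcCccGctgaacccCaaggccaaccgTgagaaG
Actg1: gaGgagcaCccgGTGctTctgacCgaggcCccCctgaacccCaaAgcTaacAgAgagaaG
In these 60 bases Actc1 and Actg1 differed from Acta2 at 13 and 15 positions. Of 1103 windows of 29 bases, 3.45% were shared with another transcript for Acta2, 6.98% for Acta1 and 1.90% for Actc1, and 2.73% of 1100 windows were shared for Actg2. These genes lie at chr19:34240336-34255585 (Acta2), chr6:83512909-83536251 (Actg2), chr8:123891758-123894775 (Acta1) and chr2:114047282-114052875 (Actc1) in GRCm38. An exact match of 29 bases thus identified nearly all of each muscle actin, and no window of Actg1. The number of mismatches allowed in alignment is not given in the sources used here.

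Smooth muscle and pericyte markers were present for 15 of 20, trace for 3 and absent for 2, beside 50.7% present and 38.9% absent among all protein-coding rows. Acta2 led the list, with a density of 3221 ± 255, below Actg1 at 6656 ± 139 and Actb at 5529.9 ± 586. Cald1, which encodes the actin-binding caldesmon, had 1417, 1282 and 1296 CPM, the enteric actin Actg2 had 507, 500.1 and 613 and transgelin Tagln had 580.3, 589 and 440.3. The regulatory light chain Myl9 had 330.4, 294 and 311 CPM and the receptor Pdgfrb had 47.1, 56.7 and 34.4. Lower densities than that of Acta2 were found for the myosin heavy chain Myh11 (12.2), calponin Cnn1 (4.61) and leiomodin Lmod1 (1.76). These were picked from the list and do not stand for all its markers of smooth muscle, since Actg2 was high. The pericyte genes Rgs5 and Kcnj8 were absent, and the coactivator Myocd was trace at 0.300 CPM. Tagln overlaps the locus of Pcsk7, and the use of strand in counting is not given in the sources used here.

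Of 39 fibroblast and mesenchymal markers 32 (82.1%) were present, 1 was trace and 6 were absent, beside 50.7% present among all protein-coding rows. The summed CPM of the list was 22389, 24153 and 18505 in replicates 1, 2 and 3. Vim, Col1a1, Fn1, S100a4 and Sparc had the most RPFs. Sparc, a collagen-binding glycoprotein, had 2183, 2154 and 1518 CPM and S100a4, often called fibroblast-specific protein, had 2088, 2191 and 1766. For S100a4, 94.2% of windows also occurred in another annotated transcript, so its count is uncertain. Transcription factors of mesenchyme were present too, with Prrx1 at 88.8 ± 4.30, Zeb1 at 73.2 ± 3.36, Twist2 at 35.1 ± 1.73, Zeb2 at 26.3 ± 1.42, Snai1 at 15 ± 0.989 and Twist1 at 12.4 ± 1.07 CPM. The crosslinking enzyme Lox had 136, 154 and 69.2 CPM and was lowest in replicate 3. Of the 25 markers of at least 10 CPM, 20 were lowest in replicate 3, beside 26.4% of all rows of at least 10 CPM. Their median log2 ratio to the other libraries was -0.58. Thy1, Lum, Fap, Tcf21, Meox1 and Meox2 were absent, and the proteoglycan Dcn, common in adult fibroblasts, was at 7.32 CPM.

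Neural progenitor and radial glia markers were present for 13 of 19 (68.4%), trace for 2 and absent for 4, beside 50.7% present and 38.9% absent among all protein-coding rows. Tenascin-C (Tnc) had 569, 617 and 440.0 CPM, the cadherin Cdh2 had 583, 653 and 384 and the intermediate filament nestin (Nes) had 419, 469 and 315. Tnc and Cdh2 are also made by mesenchymal cells, and Tnc, Cdh2 and Nes were all lowest in replicate 3. Sox2, a factor that keeps neural progenitors undifferentiated, had 48.9, 48.7 and 56.8 CPM, the RNA-binding protein Msi2 had 55.2, 58.4 and 54.7, the Hedgehog effector Gli3 had 41.3, 44.9 and 46.4 and the Notch target Hes1 had 17.2, 16.5 and 27.9. Pax6 had 16.9, 16.1 and 19.3 CPM, at a locus that overlaps Elp4, and Lhx2 had 10.1, 9.12 and 9.33. Near the limit for presence were the transporter Slc1a3 at 1.67 and the lipid-binding protein Fabp7 at 1.12 CPM. Neurog2, Hes5 and Prom1 were among the absent ones.

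Of 32 pan-neuronal markers 15 (46.9%) were present, 9 were trace and 8 were absent, a share present near the 50.7% of all protein-coding rows. The adhesion molecule Ncam1 had 404, 410.2 and 252 CPM, the tubulin Tubb3 had 100.2, 95.6 and 109 and the microtubule regulator Stmn2 had 103, 90.7 and 69.5. The ubiquitin hydrolase Uchl1 had 76.2, 69.9 and 77.4 CPM and the microtubule protein Map2 had 50.0, 51.2 and 38.8. The neurofilament chains were at 23.6 CPM for Nefh (overlapping Ap1b1), 3.06 for Nefm and 0.894 for Nefl, which was trace. Doublecortin (Dcx), a protein of migrating neuroblasts, had 3, 6 and 2 RPFs, and the neuronal nuclear protein Rbfox3 was trace at 0.121 CPM. Snap25, Syt1, Mapt, Gria2, Grin1, Elavl3, Scg2 and Chga were absent. Snap25, of the synaptic fusion machinery, had 0 RPFs in all 3 libraries.

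Of 35 markers of striatal identity 10 were present, 10 were trace and 15 were absent, a share present of 28.6% beside 50.7% of protein-coding rows. Arpp19, a phosphatase inhibitor that dividing cells also use, had the most RPFs at 150.2, 144 and 171 CPM. Among striatal transcription factors Foxp1 had 32, 35.5 and 33.4 CPM, Meis2 had 27.2, 23.9 and 27 and Ebf1 had 13.8, 13.2 and 12.6. Ppp1r1b, which encodes DARPP-32 of medium spiny neurons, had 357, 270 and 427 RPFs or 13.5, 6.45 and 16.5 CPM, with replicate 2 less than 50% of the others. Dlx2 and Dlx1, homeobox factors of the ganglionic eminence, were at 9.33 and 2.72 CPM, whereas Dlx5 and Dlx6 had 0 RPFs in each library. Zfp503 was at 6.14, Pde1b at 3.41 and the enkephalin precursor Penk at 1.43 CPM. The dopamine receptors Drd1 and Drd2, the GABA-synthesizing enzyme Gad1, the GABA transporter Slc32a1 and the transcription factor Bcl11b had 0 RPFs in all libraries, as had Gsx2 and Rasd2. Arpp21, Isl1, Ikzf1, Pdyn and Oprm1 were absent with at most 3 RPFs in a library.

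Of 14 forebrain patterning genes 5 (35.7%) were present, 3 were trace and 6 were absent, beside 50.7% present among all protein-coding rows. The zinc-finger factor Zic2 had 10.8, 12.2 and 11.1 CPM, Emx2 had 8.34, 8.14 and 8.37 and Otx1 had 7.43, 7.88 and 8.68. Lhx6, of interneuron precursors, was at 1.31 CPM. Nkx2-1, Otx2, Tbr1, Hesx1, Emx1 and Rax were absent.

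Hox genes pattern the hindbrain and trunk and are not normally expressed in the forebrain. Of 39 Hox rows 11 (28.2%) were present, 17 were trace and 11 were absent, beside 50.7% present among all protein-coding rows. Hoxb9 had the most RPFs with 639, 848 and 710, or 24.1, 20.2 and 27.4 CPM, followed by Hoxb8 with 11.2, 9.95 and 14.7, Hoxb7 with 5.77, 5.75 and 8.37 and Hoxb6 with 6.15, 6.54 and 6.44. Hoxb2 and Hoxb4 were at 2.47 and 1.29 CPM, while Hoxb5 and Hoxb3 were trace at 0.757 and 0.406 and Hoxb1 had 0 RPFs. Outside that cluster Hoxc9, Hoxc8, Hoxd8, Hoxa10 and Hoxd9 were present at 1.06 to 1.59 CPM. The locus of Hoxb4 overlaps that of Hoxb3. The absent members included Hoxa2, Hoxa3, Hoxa13, Hoxb1, Hoxd1, Hoxd3, Hoxd4, Hoxd10, Hoxd12 and Hoxd13. The share of shared windows was 1.80% for Hoxb9 and 0.713% for Hoxb8. Whether the RPFs of Hox and of forebrain patterning genes came from the same cells cannot be told from bulk libraries, where fewer cells of a type and less RNA per cell look alike.

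**Figure D4:**
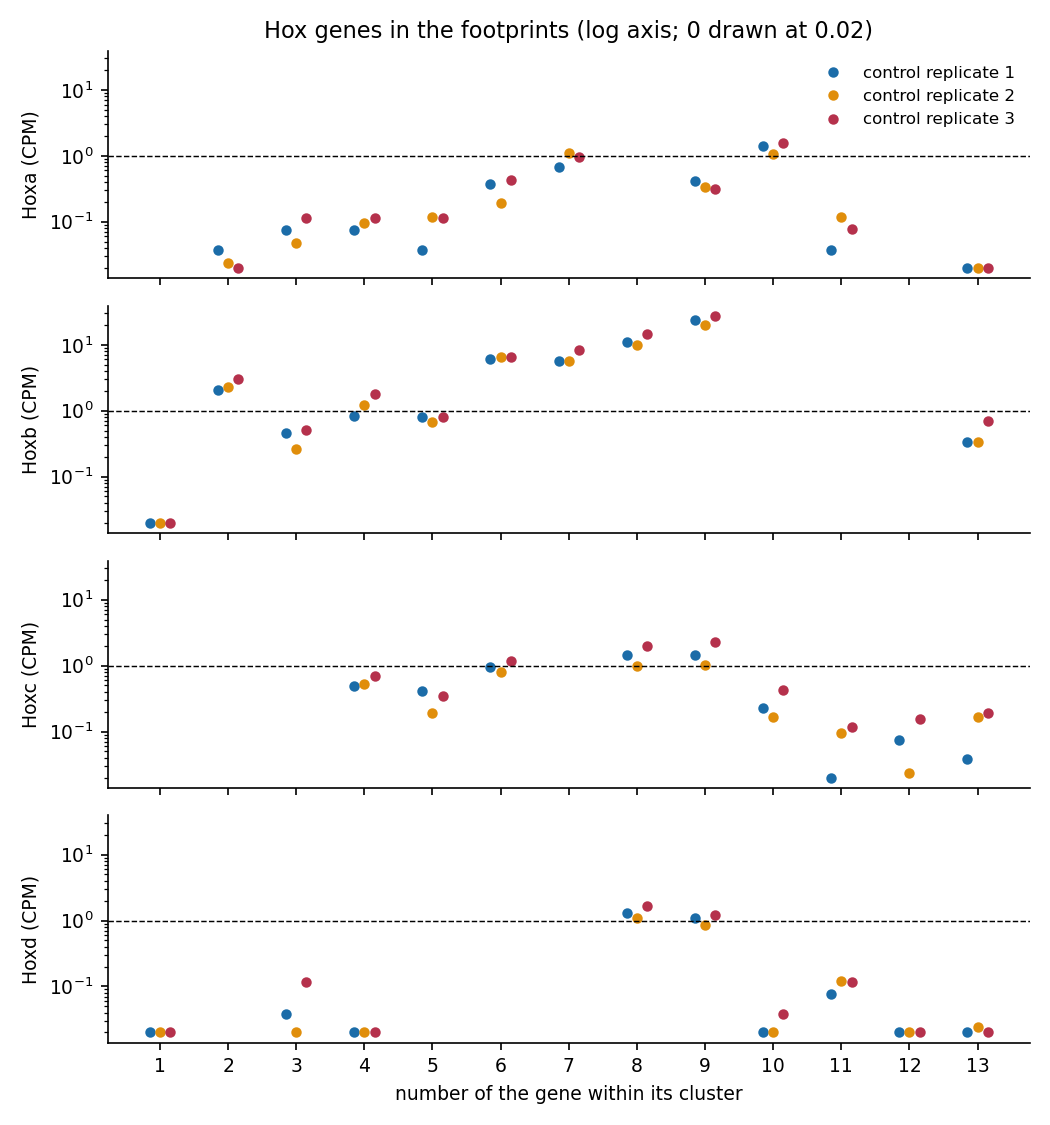
CPM of Hox genes (y axis, log scale, 0 drawn at 0.02) against their number within the Hoxa, Hoxb, Hoxc and Hoxd clusters (x axis), with a point for each control library and a dashed line at 1 CPM. The Hoxb panel rises to Hoxb9 at 20.2 to 27.4 CPM, and in the other clusters the genes called present carry numbers 8 to 10.

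Beside the 50.7% of protein-coding rows that were present, the share was 53.3% for astrocyte, 21.4% for oligodendrocyte lineage, 12.5% for microglia and blood and 14.3% for endothelial genes. Among astrocyte genes 8 of 15 were present, led by the gap junction protein Gja1 (294, 326 and 273 CPM), Glul (55.8% of windows shared with another transcript), Sox9, Aldoc and Nfia, while Gfap was at 1.15 CPM and Aqp4, Ntsr2, S100b and Mlc1 were absent. For the oligodendrocyte lineage only Cspg4 (60.5, 66.1 and 35.9 CPM), Cnp and Pdgfra were present of 14, and Olig1, Olig2, Mbp, Mog, Mag, Myrf, Nkx2-2, Cldn11 and Gpr17 were among the absent ones. Of 16 microglia and blood genes, Tmem119 and Cd68 were present at 5.45 and 2.39 CPM, and Aif1, Trem2, Itgam, Cx3cr1, Tyrobp, C1qa, C1qb, Spi1, Gata1 and Hbb-bs were absent. Endothelial genes were present for 2 of 14. The VEGF receptor Flt1 had 109.8, 113 and 79.5 CPM and Plvap was at 2.97 CPM, whereas Pecam1, Cldn5, Tie1, Tek, Emcn, Esam, Erg and Sox17 were absent.

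The shares present in the next lists are again to be read beside 50.7% of all protein-coding rows. Neural crest genes were present for 10 of 17 (58.8%), led by the retinoid-binding protein Crabp1 (509, 467 and 522 CPM), Ets1, Id3, Sox9 and Tfap2a, with Sox10 trace at 0.162 CPM and Tfap2b, Pax7 and Ednrb absent. Meningeal and choroid genes were present for 11 of 18 (61.1%), led by the water channel Aqp1 (77.6, 86.8 and 77.7 CPM), Gjb2, Tbx15, Foxc1 and Tbx18, with Ttr, Kcne2 and Slc22a6 absent. Cartilage and bone genes were present for 6 of 15 (40%). Osteopontin (Spp1) had 803, 832 and 502 CPM, Runx2 had 45.3, 45.5 and 49.3 at a locus overlapping Supt3, and Col2a1, Sox9 and Acan followed, while Col10a1, Bglap, Ibsp and Dlx5 were absent. Skeletal and cardiac muscle genes were present for 9 of 20 (45%), led by Acta1 (465, 447 and 443 CPM), Actc1 (304, 284 and 386 CPM), Tnnt2, Tbx20 and Myh6, and the myogenic factors Myod1, Myf5, Myf6 and Myog were absent, as were Tnnt3, Tnni3, Tbx5, Hand2 and Pax7.

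Epithelial genes were present for 4 of 19 (21.1%), namely Krt19 (24, 24.8 and 30.2 CPM), Dsp, Krt8 and Cdh1, with Epcam, Cldn3, Cldn4, Cldn7, Esrp1 and Dsg2 absent. Of the pluripotency and germline genes, 1 of 13 was present, Klf4 at 21, 22.3 and 24.5 CPM, which is also an immediate early gene, and Pou5f1, Lin28a, Dppa3, Dppa5a, Tdgf1, Dazl and Sall4 were absent. Immediate early genes, which growth signals switch on, were present for 22 of 23 (95.7%). Myc had 354, 346 and 378 CPM, Fosl1 had 239, 227 and 246 and Junb had 186, 175 and 194, with Klf6 and Ier2 next. Fos, the best known of them, was trace with 28, 42 and 23 RPFs.

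**Figure D5:**
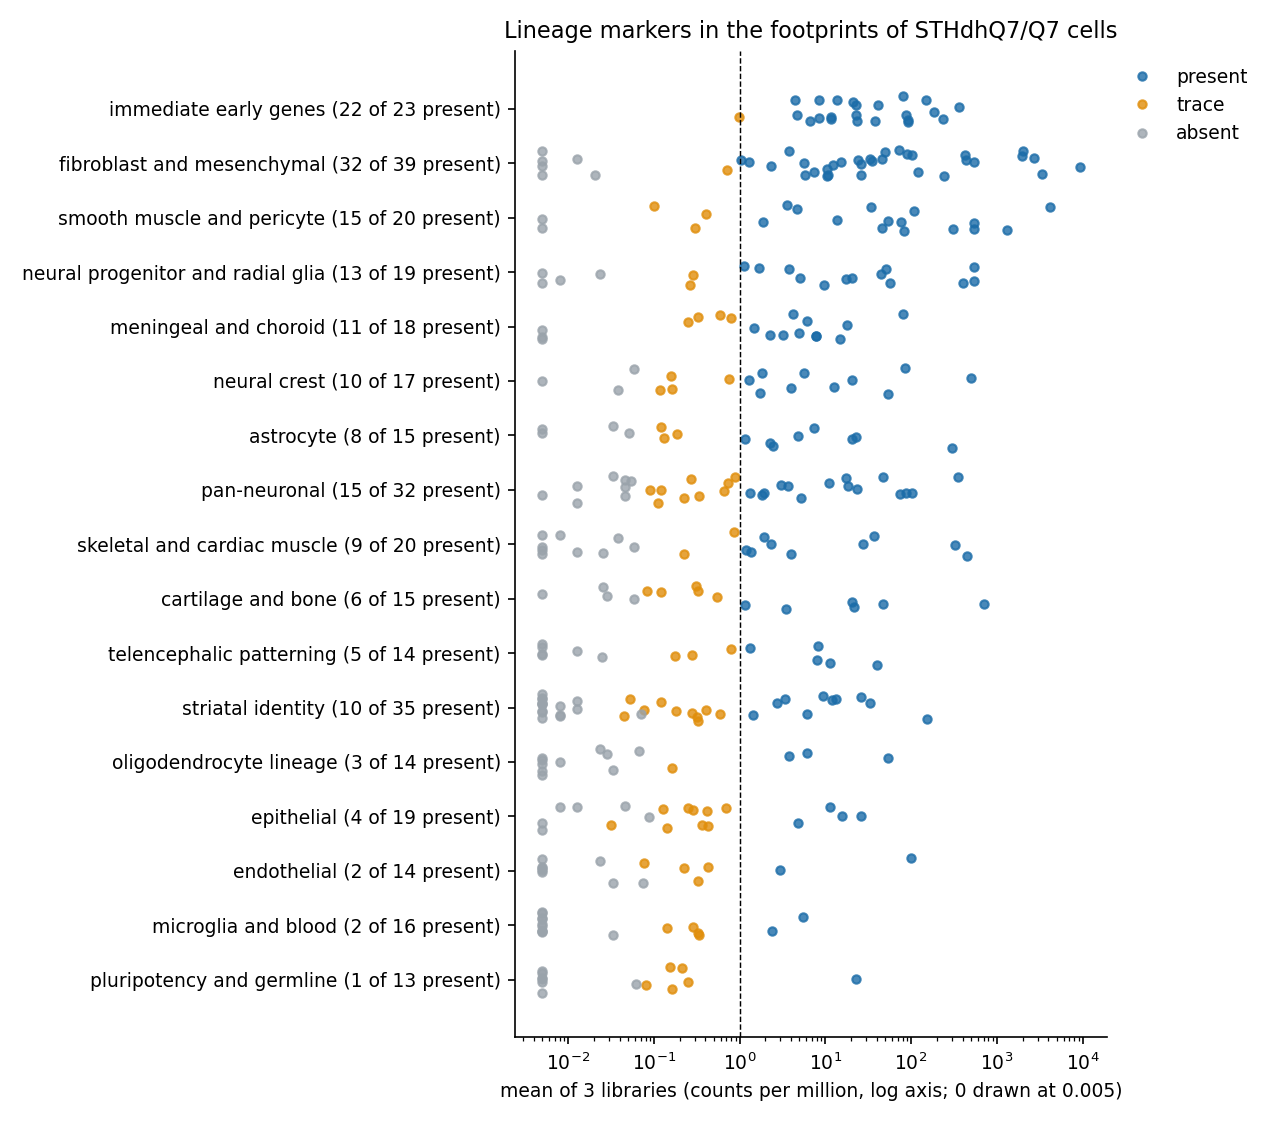
Mean CPM of the 3 control libraries (x axis, log scale, 0 drawn at 0.005) for each marker of 17 lists (y axis, with the number present), coloured by present, trace and absent, and a dashed line at 1 CPM. Fibroblast and mesenchymal (32 of 39) and smooth muscle and pericyte (15 of 20) lists lie mostly to the right, and striatal identity (10 of 35), endothelial (2 of 14) and microglia and blood (2 of 16) lists mostly to the left.

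Over all lists 159 of 329 markers (48.3%) were present, 67 were trace and 103 were absent, and 11 of the present ones (Pax6, Syn1, Nefh, Ina, Cnp, Plvap, Tagln, Eng, Myh6, Runx2 and Fosl1) lie at loci that overlap another protein-coding gene. For the label of a striatal cell, Foxp1, Meis2, Ebf1, Dlx2 and Ppp1r1b were present, whereas the dopamine receptors Drd1 and Drd2 of medium spiny neurons, the GABAergic genes Gad1 and Slc32a1 and the factor Bcl11b had no RPF in any library. On the density scale markers of 1 list differed widely. Fibroblast and mesenchymal markers ranged from 5865 ± 170.2 for Vim and 682 ± 202 for Col1a1 to 5.18 ± 1.20 for Col1a2 and 3.71 ± 1.66 for Col6a3. Among neural and striatal markers, means were 144 for Stmn2, 124 for Ncam1, 63.5 ± 13.5 for Nes, 47.5 ± 3.60 for Sox2 and 18.3 ± 7.51 for Ppp1r1b. These genes were picked, and the lists were not compared as wholes.

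Of 7517 named rows of at least 10 CPM, 251 had a ratio of highest to lowest library above 1.5. Of these, 206 were lowest in replicate 3, 40 in replicate 2 and 5 in replicate 1. Among all rows of at least 10 CPM, 26.4% were lowest in replicate 3. Rpl23 varied most with 70.0, 30.6 and 95.3 CPM, a ratio of 3.11. L1cam, a neural adhesion molecule, had 14.3, 13.6 and 5.32 CPM (ratio 2.68), the collagen chain Col6a3 had 40.4, 43.6 and 16.8 (2.60), Ppp1r1b had a ratio of 2.56 and the collagen chain Col5a3 had 26.9, 30.4 and 12.1 (2.52). L1cam, Col6a3 and Col5a3 were lowest in replicate 3, and Rpl23 and Ppp1r1b were lowest in replicate 2.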

How the data were processed

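RPF counts of the control line were analysed from the deposited table of whole-number counts per gene symbol. Per the submitters' processing notes, the authors used cutadapt, Bowtie 1.0.1 and the mm10 genome. The counting program, annotation, strand use and handling of reads with several matches are not given in the sources used here. The 3 control columns were used and the 6 columns of other lines were not. CPM was each count divided by its column total. Functional classes were symbol patterns applied in order, and coding lengths were APPRIS principal or longest coding sequences of GENCODE M21. Symbols were matched to RefSeq (GRCm38.p6) for 93.0% of rows. As 26 symbols had turned into dates and 282 were older symbols beside a current one, these rows were kept in totals and not named. Rows named are the 30 highest by CPM, the 3 highest per class, the 5 highest present and all absent markers of each list, Hox genes and Htt, the 5 with the widest library ratio and the 10 densest; other named rows, including the subunits of complexes, were chosen after their values were seen. A few genes that this rule selects are not reported here. The line and the lists were chosen with earlier results of these data known. No group was compared with another, so no test was run and n is 3. Share and call code was tested on simulated data. Python 3.11.15, pandas 2.3.3, numpy 2.4.6 and edgeR (TMM factors only) were used. Alternatives were other thresholds, totals, row sets, coding length and each library left out.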

Additional observations from a re-analysis of the deposited data

How the results depend on the processing

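Of 92 alternatives over 10 results, 87 stayed within 1 SD (shares) or 1.5 times (counts) of the value given. Leaving out 1 of 3 libraries cannot move a mean share by 1 SD of those 3. Such alternatives of the shares therefore had to count as within it. Dividing by coding length moved the share of cytosolic ribosomal proteins to 15.9%, of extracellular matrix proteins to 1.28%, of actin proteins to 7.58% and of the 10 highest rows to 10.4%. Leaving out the highest row, Eef1a1, moved the share of the 10 highest rows to 6.59%; no mitochondrially encoded row was there to leave out. With each library left out in turn, the shares ranged from 8.18% to 8.37% (ribosomal proteins), 2.57% to 3.26% (matrix), 7.11% to 7.20% (actin) and 7.16% to 7.37% (10 highest rows), and present rows from 11008 to 11035. At 5 CPM, 9057 rows were present, with 10 pan-neuronal, 7 striatal, 10 neural progenitor, 28 fibroblast and 12 smooth muscle markers, and at 0.5 CPM, 11653 rows with 18, 11, 13, 32 and 15. Without replicate 3, an alternative chosen after seeing the data, endoplasmic reticulum, growth factor and adhesion proteins took 2.15%, 0.863% and 2.71%. Over all libraries they took 1.97%, 0.785% and 2.65%. The limit of 1 SD could not be exceeded here either, so it does not show that these shares are stable. No paired analysis was possible because only the control group was used. Depth limits calls near 3 counts, or 0.0716 to 0.116 CPM.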
